A study of Mus musculus with 7 samples.

Results

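The 10 genes described here encode the subunits of actin filaments and microtubules and the actin-binding proteins cofilin and profilin. They were taken by symbol from the count table of 7 single mouse embryos, and all 10 were found among its 26586 gene symbols. They comprise the 2 cytoplasmic actins Actb and Actg1, the 4 α-tubulins Tuba1a, Tuba1b, Tuba1c and Tuba4a, the 2 β-tubulins Tubb5 and Tubb4b, and Cfl1 and Pfn1. The embryos, of the C57BL/6 background, were untreated morulae flushed from the oviduct or uterus of L13a+/- females 3 days after mating; the label names the mating an L13a-/+ cross (Rpl13a, a ribosomal protein gene). Polyadenylated RNA of each embryo was amplified with SMART-Seq v4 and sequenced. All 7, numbered 1 to 7 in the labels, form 1 group. Their own genotypes and litters are not in the labels, so no contrast between groups was made, and no genotype was read from the data, in which Rpl13a was counted in all 7. The p-values below therefore compare no groups. They ask whether the mean log ratio of the genes of a pair, taken within embryos, departs from equal levels. They hold only for these 7 samples, and part of the variation among the samples may be technical.

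Actin filaments grow by the addition of actin monomers, which profilin binds and delivers to filament ends, while cofilin severs old filaments and returns monomers to the pool. Microtubules are built from dimers of 1 α- and 1 β-tubulin, and mammals have several genes for each, called isotypes, whose proteins differ mainly in their tails. In the mouse embryo around the morula stage, cortical actin drives compaction, and microtubules form the spindles of each cleavage and the arrays that position cell contents.

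The libraries were very uneven. Totals ran from 139619 counts in embryo 6 to 33123742 in embryo 4, a 237-fold range; embryos 3, 1 and 5 had 725729, 1143861 and 2764409, and embryos 2 and 7 had 16452890 and 17122136. Between 1749 and 12064 genes had a count. Set against its marker lists, the morula label was met unevenly. All 10 pluripotency markers were counted in embryo 4, 6 in embryo 2, 5 in embryo 7, 3 in each of embryos 1, 3 and 5, and 0 in embryo 6. Of 10 trophectoderm markers, 2, 7, 1, 9, 1, 1 and 3 were counted in embryos 1 to 7. Their CPM (a gene's counts per 1000000 counts of its library) summed to 170, 330, 2.76, 3641, 280, 3065 and 168. In embryo 6 the sum came from Dab2 alone. The 15 oocyte markers summed to 41.1 CPM in embryo 4 and 612 CPM in embryo 5, against 4226 to 18815 CPM in the other five. Markers of the mother's oviduct and uterus summed to 6289 CPM in embryo 6, with 4 of 10 counted, and those of stroma and muscle to 4734 CPM there, with 3 of 10 counted. Those of blood and immune cells summed to 444 CPM there, with 2 of 10 counted. A level in a single embryo cannot tell fewer cells of a type from less RNA per cell.

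How far the reads of each gene can be told from those of its relatives depends on sequence, so coding sequences that set isotypes apart are shown first. The opening 60 bases of the 2 cytoplasmic actins, which encode the protein end where the actins differ most, are given in the order of transcription, with capitals at positions where the 2 differ, and come from GENCODE M21 transcripts of GRCm38.
Actg1: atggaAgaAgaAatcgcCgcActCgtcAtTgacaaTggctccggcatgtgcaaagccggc
Actb: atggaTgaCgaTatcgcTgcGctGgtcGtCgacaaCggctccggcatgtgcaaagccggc
These windows differ at 9 positions. Over the whole coding sequence of 1128 bases, Actg1 and Actb were identical at 1000 positions (88.7%), and their longest identical run was 62 bases. The Tuba1 genes were far closer to each other. The coding sequences of Tuba1c and Tuba1b were identical over 97.9% of 1356 aligned positions, with an identical run of 468 bases, Tuba1a and Tuba1b over 98.3% with a run of 281 bases, and Tuba1a and Tuba1c over 97.1% with a run of 446 bases. For the 2 β-tubulins the last 60 bases are shown, which encode the acidic tail and end with the stop codon. Compared base by base from the stop codon, without alignment, they differ at 24 positions, in capitals. The coding sequences are 1338 bases (Tubb4b) and 1335 bases (Tubb5) long. Part of the stretch is therefore out of register, and the 24 capitals are not a count of substitutions.
Tubb4b: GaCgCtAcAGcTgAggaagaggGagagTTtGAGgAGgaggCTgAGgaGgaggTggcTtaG
Tubb5: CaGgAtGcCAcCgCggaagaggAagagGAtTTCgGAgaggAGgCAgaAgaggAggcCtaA
Tubb4b and Tubb5 were identical at 82.2% of aligned coding positions, with a longest run of 26 bases, and Tuba4a and Tuba1b at 85% with a run of 29 bases.

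The members therefore differed in how much of each transcript is unique. Each 50-base window of the principal transcript was looked up in all other annotated transcripts, on both strands, leaving out genes that overlap the member itself. Only 17.8% of the windows of Tuba1b were found at no other gene, 35.7% of Tuba1a, 39% of Tuba1c, 44.1% of Actg1 and 49.1% of Tubb4b. The shares were 85.8% for Actb, 90.8% for Cfl1, 98.9% for Tuba4a, 99.9% for Tubb5 and 100% for Pfn1. With 100-base windows they were 30.9% for Tuba1b, 50% for Tuba1a, 46.6% for Tuba1c, 48.9% for Actg1, 70.8% for Tubb4b, 98.9% for Actb, 99.6% for Cfl1 and 100% for Tuba4a, Tubb5 and Pfn1. The Tuba1 genes share windows with each other and with pseudogenes. Of the 50-base windows of Tuba1b, 59.3% occur in Tuba1c, 57% in the lincRNA gene AC157548.1, 48.1% in the processed pseudogene Gm14150 and 44.9% in Tuba1a. Actg1 shares 51.1% with the processed pseudogene Gm12715, and Tubb4b shares 43.6% with the processed pseudogene Tubb4b-ps1; the count table has no entry for either. Read length and the treatment of reads that match several places are unknown here, so counts of Tuba1a, Tuba1b, Tuba1c, Actg1 and Tubb4b are uncertain as measures of those genes, and the part of shared reads in the levels below was not tested beyond the length alternatives given with the pairs.

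**Figure D1:**
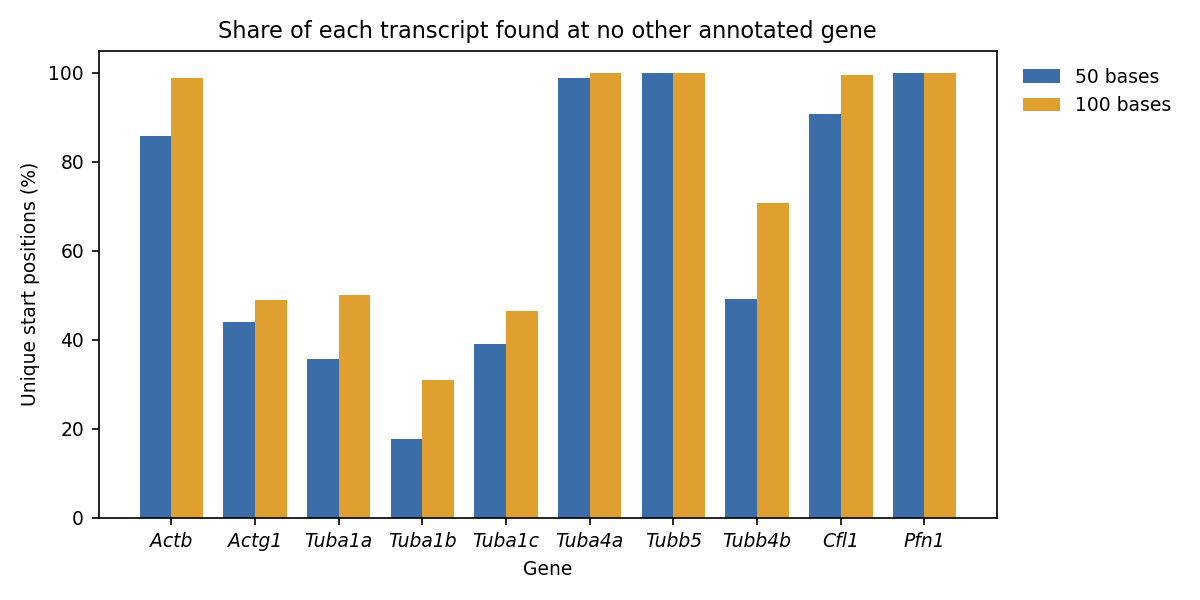
Bars give, for each of the 10 genes, the share of start positions in its principal transcript whose window of 50 bases (blue) or 100 bases (orange) occurs at no other annotated gene, overlapping genes left out; the vertical axis runs from 0 in percent. The Tuba1 genes, Actg1 and Tubb4b stand below the rest, with Tuba1b lowest at 17.8% and 30.9%.

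Actb was the only one of the 10 genes counted in all 7 embryos. Among the 11810 genes whose mean CPM reached 1, 436 were counted in all 7 (3.69%). Of the 9 members that reached this mean, all but Tuba1a, 2 were counted in 6 or more embryos, where 12.7% of all genes were. The median of the mean log2 CPM of the 11810 genes was 0.85, against 9.20 for Actb, so these shares are not matched for level. Cfl1 was counted in 6 embryos, Tubb5, Tubb4b and Pfn1 in 5, Actg1 in 4, Tuba1b, Tuba1c and Tuba4a in 3, and Tuba1a in 2. Embryos 2 and 4 had all 10 genes and embryo 7 had 9, while embryos 5, 1, 6 and 3 had 5, 4, 3 and 2. Of these 9 members, 7 were at 0 in embryo 3, as were 71% of all genes, and 6 were at 0 in embryo 6, as were 85.2%. Of the 70 gene and embryo combinations, 27 were at 0. Without embryo 6 the number of genes counted in every remaining embryo was 2 (Actb and Cfl1), where 8.74% of genes were. Without embryos 3 and 6, the libraries of lowest total, it was 4 (Actb, Tubb5, Tubb4b and Cfl1), where 14% were.

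Depth alone was checked by drawing 139619 reads from every library. The number of members counted was then 4, 9, 2, 9, 5, 3 and 8 in embryos 1 to 7, so the order of embryos was nearly unchanged. Tuba1a dropped out of every library and Tuba1c out of embryo 7. A count of 0 allows a level of up to 2.62, 4.13, 1.09 and 21.5 CPM in embryos 1, 3, 5 and 6 (3 counts of the total). Intervals and such limits cover counting error only, since the libraries carry no molecular tags that would reveal amplified copies.

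**Figure D2:**
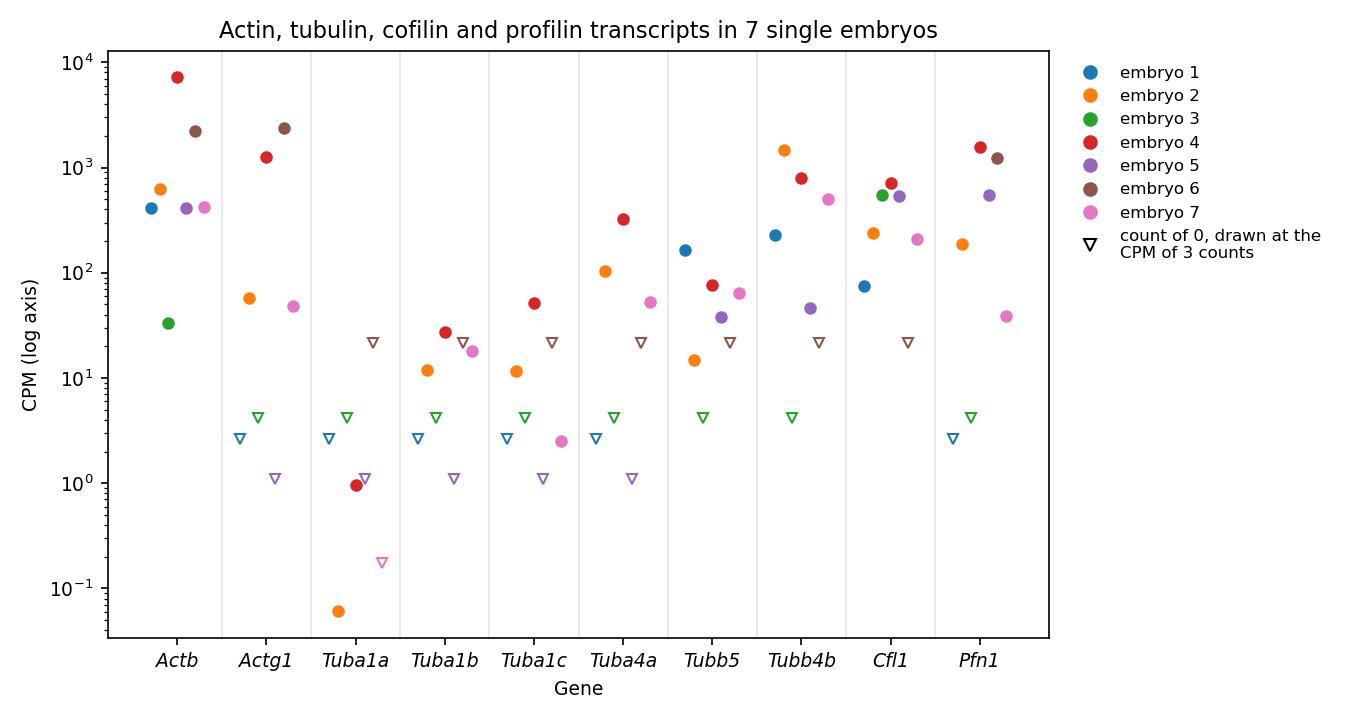
Each filled point is the CPM of 1 gene in 1 embryo, on a log axis, coloured by embryo; open triangles mark a count of 0 and stand at the CPM that 3 counts would give in that library. Actb has a filled point in all 7 embryos, and the 4 α-tubulins have none in embryos 1, 3, 5 and 6.

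Actb, the β-actin gene of non-muscle cells (chromosome 5, 142903115 to 142906754, minus strand, GRCm38), was the most abundant member by mean CPM and by mean CPM per kilobase of exon (604), with 412, 630, 33.1, 7180, 408, 2242 and 423 CPM in embryos 1 to 7. Its counts were 471, 10363, 24, 237812, 1128, 313 and 7245. The highest value, in embryo 4, was 217-fold above the lowest, in embryo 3, where the 95% Poisson interval was 21.2 to 49.2 CPM. Embryos 1, 5 and 7 lay close together, with overlapping intervals of 375 to 451, 385 to 433 and 413 to 433 CPM. In embryo 4, Actb ranked 7 among all genes by count; in embryo 3 it ranked 1911. On the log2 CPM scale it averaged 9.20 ± 2.52 (SD, n = 7).

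Actg1, the γ-actin gene (chromosome 11, 120345690 to 120348542, minus strand), was counted in embryos 2, 4, 6 and 7 and stood at 0 in embryos 1, 3 and 5. Its levels where counted were 57.4, 1270, 2349 and 48.7 CPM, so embryos 4 and 6 were far above embryos 2 and 7. At the level of embryo 7, 55.7, 35.3 and 135 counts would have been found at the totals of embryos 1, 3 and 5. The microRNA genes Gm23419 and Mir6935 lie within Actg1 on the same strand and are not in the count table. Its log2 CPM was 3.83 ± 5.84 (SD, n = 7), and 0.347% of the 11810 genes had a larger SD.

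Per exon length, Actg1 was below Actb in 6 of 7 embryos. Per kilobase of exon, Actg1 and Actb stood at 21.6 and 235 CPM in embryo 2, at 478 and 2680 in embryo 4, and at 18.3 and 158 in embryo 7, so Actg1 was lower in all 3. In embryo 6 they lay close, at 884 and 837 CPM per kilobase; with positions unique at 100 bases as length, the log2 ratio of Actg1 over Actb there was 1.06. For embryos 1, 3 and 5, Actg1 was set at a floor of 3 counts and Actb taken as counted. Per exon length, Actg1 was then 156-fold, 7.94-fold and 373-fold lower. These are not firm lower limits, since Actb had 24 counts in embryo 3 and the ratio depends on the length used. The log2 ratios in these embryos were -9.87, -5.60 and -11.13 per exon length. With positions unique at 50 bases as length they were -8.95, -4.68 and -10.21. As a share of the counts of both, Actg1 held 8.36% in embryo 2, 15% in embryo 4, 51.2% in embryo 6 (95% Clopper-Pearson interval 47.2 to 55.1) and 10.3% in embryo 7. The mean log2 ratio of Actg1 over Actb was -5.08 ± 4.08 (SD, n = 7; two-sided exact permutation p 0.0312, adjusted over 6 pairs 0.188). That adjusted value did not pass 0.05. With positions unique at 50 or 100 bases as length, the mean was -4.16 or -4.10.

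Embryo 6, in which Actg1 was highest relative to Actb, had the fewest reads and the highest summed CPM of the oviduct and uterine list, although 4 of its 10 markers were counted there and all 10 in embryo 2. Of the oviduct and uterine list, Lcn2 (1490 CPM), Ltf, Wfdc2 (1690 CPM) and Sprr2f (1948 CPM) were counted there, and Ovgp1, Muc1, Pax8, Foxj1, Krt7 and Elf3 were at 0. Some of these, such as Krt7, are also known from trophectoderm. Of the stromal list, Dcn (4240 CPM), Vim (387 CPM) and Col1a1 were counted. The same oviduct and uterine list summed to 1153, 2000, 0, 1132, 1.81 and 253 CPM in embryos 1, 2, 3, 4, 5 and 7, and the stromal list to 258, 122, 565, 16.1, 0 and 8.29 CPM. The part of these cells in the actin levels was not tested. Without embryo 6, the mean log2 ratio of Actg1 over Actb was -5.94 (exact permutation p 0.0312, adjusted 0.188).

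Transcripts of the α-tubulin members were found in embryos 2, 4 and 7, the 3 libraries of highest total, and in no other. Tuba4a (chromosome 1, 75214228 to 75219865, minus strand) was the most counted of them, with 104, 325 and 52.6 CPM. Embryo 4 was highest and embryo 7 lowest. At the level of embryo 7, embryos 1, 3, 5 and 6 would have had 60.2, 38.2, 145 and 7.35 counts of Tuba4a, and each had 0. Tuba1b (chromosome 15, 98931425 to 98934565, minus strand), which is broadly expressed in dividing cells, had 11.9, 27.4 and 17.9 CPM in embryos 2, 4 and 7. Tuba1c (chromosome 15, 99029891 to 99038110, plus strand) had 11.7, 51.1 and 2.51 CPM there. Tuba1c spread 20.4-fold over these embryos and Tuba1b 2.3-fold. At its lowest counted level, Tuba1c would have had 2.87, 1.82, 6.94 and 0.351 counts in embryos 1, 3, 5 and 6. Tuba1b would have had 13.6, 8.65, 32.9 and 1.66. Where these values are under 3 counts, for Tuba1c in embryos 1, 3 and 6 and for Tuba1b in embryo 6, a count of 0 says little. Tuba1a (chromosome 15, 98949837 to 98953703, minus strand), an isotype known from developing neurons, had 1 count in embryo 2, 32 in embryo 4 (0.966 CPM, interval 0.661 to 1.36) and 0 in embryo 7. At its level in embryo 2, at most 0.168 counts would have been found in embryos 1, 3, 5 and 6. Tuba1a was the only member with a mean CPM under 1. Among the 11810 genes above that level, 1173 (9.93%) were counted in embryos 2, 4 and 7 and in no other, as Tuba1b, Tuba1c and Tuba4a were.

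By raw counts Tuba4a held most of the total of the 4 α-tubulin members, but its order against Tuba1b rested on the length of sequence credited to each gene. Its share of the counts of the 4 genes was 81.5%, 80.4% and 72.1% (Clopper-Pearson interval in embryo 7, 69.5 to 74.6) in embryos 2, 4 and 7. Tuba1b held 9.34%, 6.76% and 24.5%, and Tuba1c 9.15%, 12.6% and 3.44%. Per exon length, Tuba4a was above Tuba1b in 3 of 3 embryos, at 28.1 and 6.35, 87.9 and 14.6, and 14.2 and 9.53 CPM per kilobase, with a mean log2 ratio of 1.77 ± 1.06 (SD, n = 3). With 3 embryos the smallest exact permutation p is 0.25, which was reached (adjusted 0.375). When the positions unique at 50 bases were taken as the length, an alternative added after seeing the data, the ratio was -0.45, with -0.08, 0.37 and -1.64 in embryos 2, 4 and 7; with positions unique at 100 bases it was 0.32. The count table also holds Stk16, a kinase gene on the opposite strand that shares 1379 exon bases (37.3%) with Tuba4a and had 770, 2422 and 22 counts in embryos 2, 4 and 7. The library kit does not mark strand, so reads from the shared part cannot be assigned to either gene. Overlapping genes were left out of the window lookup, so the unique positions of Tuba4a were not reduced for Stk16. Gm49450, a gene on the same strand with no entry in the count table, shares 22.7% of the exon bases of Tuba1b and 26.2% of those of Tuba1a. It was left out of their lookups in the same way.

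Tuba1a and Tuba1c were also set against Tuba1b. Tuba1a was below Tuba1b in 3 of 3 embryos, with a mean log2 ratio of -6.98 ± 2.23 (SD, n = 3, exact permutation p 0.25, adjusted 0.375). In embryo 4 this was 0.536 against 14.6 CPM per kilobase. Tuba1c was above Tuba1b in embryo 4 (22.4 against 14.6 CPM per kilobase) and below it in embryos 2 (5.1 against 6.35) and 7 (1.1 against 9.53). The mean log2 ratio was -0.93 ± 1.94 (exact permutation p 0.75, n = 3, adjusted 0.75), and without embryo 7 it was 0.15. With positions unique at 50 bases as length, Tuba1c was below Tuba1b in embryo 4 too, with a log2 ratio of -0.42, and the mean was -1.97; at 100 bases these were 0.11 and -1.44. Beyond the members, Tuba3a, an α-tubulin known from testis, had 1301 counts in embryo 7 and 638 in embryo 4, which made it 51% and 4.54% of all α-tubulin counts in those embryos. Tubal3 had 190 counts in embryo 1, the only α-tubulin counted there. Both were chosen after their values were seen.

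The β-tubulin members were counted in embryos 1, 2, 4, 5 and 7. Tubb4b (chromosome 2, 25222160 to 25224702, minus strand), a broadly expressed isotype of cytoplasmic microtubules and cilia, had 226, 1479, 798, 46.7 and 498 CPM there, and 0 in embryos 3 and 6. Tubb5 (chromosome 17, 35833921 to 35838306, minus strand), a major isotype of dividing cells, had 163, 14.9, 77.3, 38.3 and 64.2 CPM, and 0 in embryos 3 and 6. Tubb4b thus peaked in embryo 2, where Tubb5 was at its lowest counted level. At the lowest levels at which they were counted, embryo 3 would have had 33.9 counts of Tubb4b and 10.8 of Tubb5, and embryo 6 would have had 6.52 and 2.08.

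Per exon length Tubb4b was above Tubb5 in 5 of 5 embryos. The 2 genes stood at 108 and 48.9 CPM per kilobase in embryo 1, 708 and 4.48 in embryo 2, 382 and 23.2 in embryo 4, 22.3 and 11.5 in embryo 5, and 239 and 19.3 in embryo 7. The ratio ran from 1.94-fold in embryo 5 to 158-fold in embryo 2, and its log2 averaged 3.41 ± 2.59 (SD, n = 5). The exact permutation p was 0.0625, the smallest that 5 embryos allow, and 0.188 after adjustment over 6 pairs. As a share of the counts of both, Tubb4b held 58.1%, 99%, 91.2%, 54.9% and 88.6% in embryos 1, 2, 4, 5 and 7. The Clopper-Pearson intervals of embryos 1 (53.4 to 62.7) and 5 (48.3 to 61.4) overlapped each other and that of no other embryo. With positions unique at 50 bases as length, the mean log2 ratio was 4.51.

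Embryo 3, with no member tubulin, was not without tubulin RNA. Tubb6, a β-tubulin gene outside the members, was at 4126 CPM (2994 counts) there, against 101, 311, 26.8, 0, 0 and 19.8 CPM in embryos 1, 2, 4, 5, 6 and 7. Of all 2995 β-tubulin counts in embryo 3, 1 was not from Tubb6. Tubb2a, a further β-tubulin, was at 218, 479, 52.7, 11.2 and 210 CPM in embryos 1, 2, 4, 5 and 7 and 0 in embryos 3 and 6, the same embryos as Tubb4b and Tubb5. Tubg2, a γ-tubulin that nucleates microtubules, was at 441, 982, 93.1 and 631 CPM in embryos 1, 2, 6 and 7 and 0 in embryos 3, 4 and 5. Of the 14 other tubulins, 4 had no count in any embryo, as had 11622 of the 26586 genes in the table. None of the 14 was counted in all 7 embryos, where 3.69% of genes whose mean CPM reached 1 were.

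**Figure D3:**
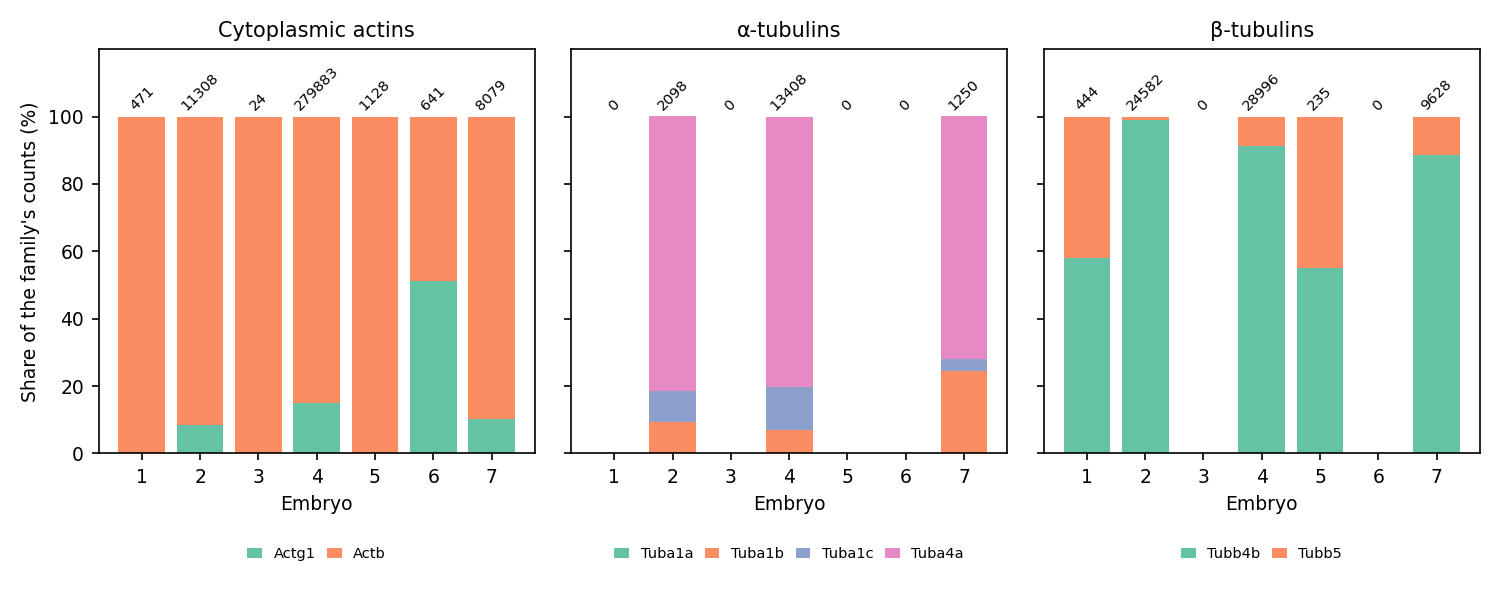
Stacked bars give the share of each gene in the counts of its family in embryos 1 to 7, in percent, for the cytoplasmic actins, the α-tubulin members and the β-tubulin members; the number above a bar is the family's count, and families with a count of 0 have no bar. Actg1 reaches 51.2% in embryo 6, and Tubb4b runs from 54.9% in embryo 5 to 99% in embryo 2.

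Cfl1, which encodes the non-muscle cofilin (chromosome 19, 5490455 to 5495201, plus strand), was at 75.2, 238, 554, 714, 531, 0 and 211 CPM in embryos 1 to 7. It lay within 9.49-fold over the 6 embryos in which it was counted, and embryo 6 would have had 10.5 counts at the level of embryo 1. In embryo 3, where Actb was at its lowest, Cfl1 was at its second highest level. Pfn1, which encodes profilin (chromosome 11, 70651850 to 70654644, minus strand), was at 0, 187, 0, 1567, 553, 1225 and 39.2 CPM. Embryos 4 and 6 were highest, as for Actg1, and embryos 1 and 3 were at 0, where 44.9 and 28.5 counts would have been found at the level of embryo 7. The log2 CPM averaged 6.88 ± 4.13 for Cfl1 and 5.58 ± 5.51 for Pfn1 (SD, n = 7).

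Cofilin and profilin transcripts had no common order. Per kilobase of exon, Cfl1 and Pfn1 were at 83.8 and 77.6 CPM in embryo 2, 251 and 651 in embryo 4, 187 and 230 in embryo 5, and 74.2 and 16.3 in embryo 7. Cfl1 was higher in embryos 1, 2, 3 and 7 and Pfn1 in embryos 4, 5 and 6. The order in embryo 2 depended on the length used, since the log2 ratio of 0.11 there was -1.01 with positions unique at 50 bases and -1.21 with those unique at 100 bases. The mean log2 ratio was 1.22 ± 5.94 (SD, n = 7, exact permutation p 0.609, adjusted 0.731), and it was -0.14 without embryo 3. With the principal transcript as length (861 bases for Pfn1, against 2405 for all its exons) the mean was 0.01, and with positions unique at 50 bases 0.10. Of the 6 pairs tested with the exact permutation test, 0 passed after Benjamini-Hochberg adjustment and 1, Actg1 over Actb, had an unadjusted p under 0.05. The design left little room, since a single pair at 0.0156, the smallest exact permutation p of 7 embryos, adjusts to 0.0938.

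**Figure D4:**
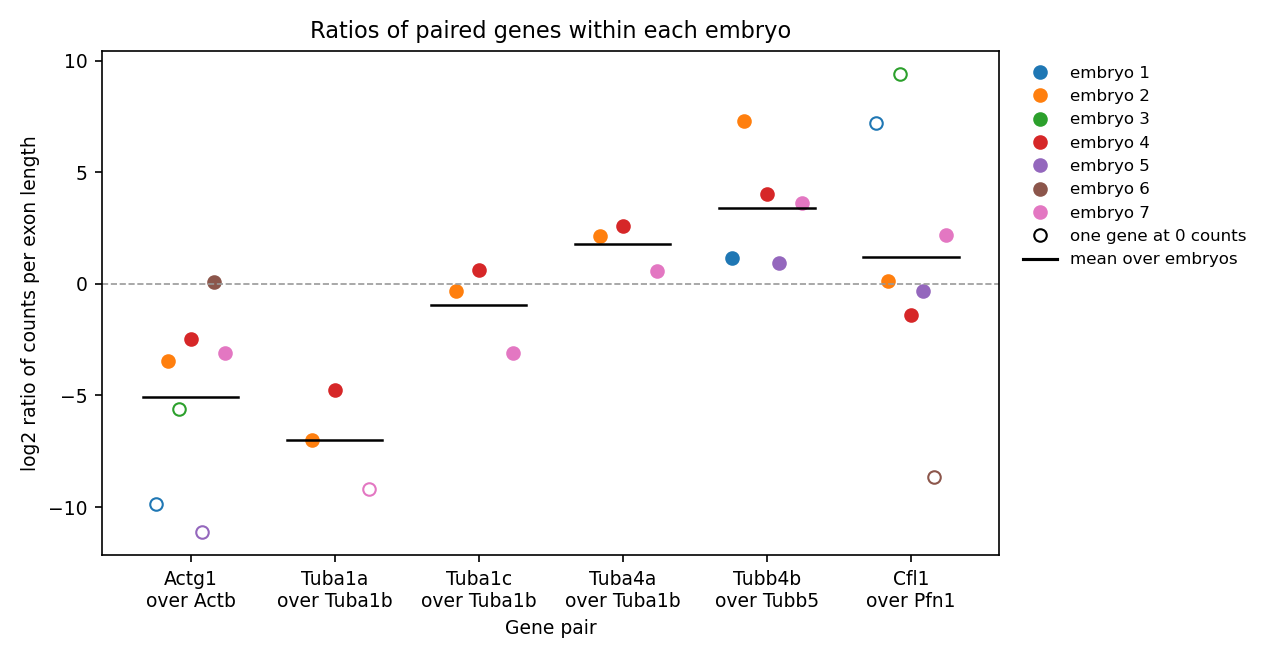
Points give the log2 ratio of counts per exon length of the first gene over the second in each embryo with at least 10 reads in the pair; open points have 1 of the genes at 0 counts, and the bar is the mean. Tubb4b lies above Tubb5 in 5 of 5 embryos, and Cfl1 over Pfn1 runs from -8.66 to 9.41.

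Summed over the 10 genes, the share of the library was 0.0875%, 0.273%, 0.0587%, 1.2%, 0.158%, 0.582% and 0.136% in embryos 1 to 7. Embryo 4 had the highest share and embryo 3 the lowest, with an exact 95% interval of 0.0533 to 0.0645%; that of embryo 6, the least sequenced, was 0.542 to 0.623%. Actb made up 59.8% of the sum in embryo 4 and 5.63% in embryo 3, where Cfl1 made up the rest. Of the 10 genes, 7 were highest in embryo 4, Tubb4b in embryo 2, Tubb5 in embryo 1 and Actg1 in embryo 6. Among the 9 members whose mean CPM reached 1, 6 were highest in embryo 4, against 29.6% of all such genes.

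The spread of most members between embryos was as wide as that of genes in general. Of the 9 members that passed this filter, 3 (Actb, Tuba1b and Tuba1c) had an SD of log2 CPM below the median of the 11810 genes, and 50% of those genes lie below it by construction. The median SD was 4.13 for these 9 members and 3.63 for all genes. Actb had the smallest, 2.52, and 85.2% of the 11810 genes had a larger SD. The median of the mean log2 CPM of those genes was 0.85, against 9.20 for Actb. The comparison is therefore not matched for level and does not show Actb to be steady for its abundance. Tubb4b and Pfn1 had SDs of 5.50 and 5.51, exceeded by 1.24% and 1.17% of genes. A gene at 0 in several embryos and high in others has a large SD on this scale, and no test of the spread was made.

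**Figure D5:**
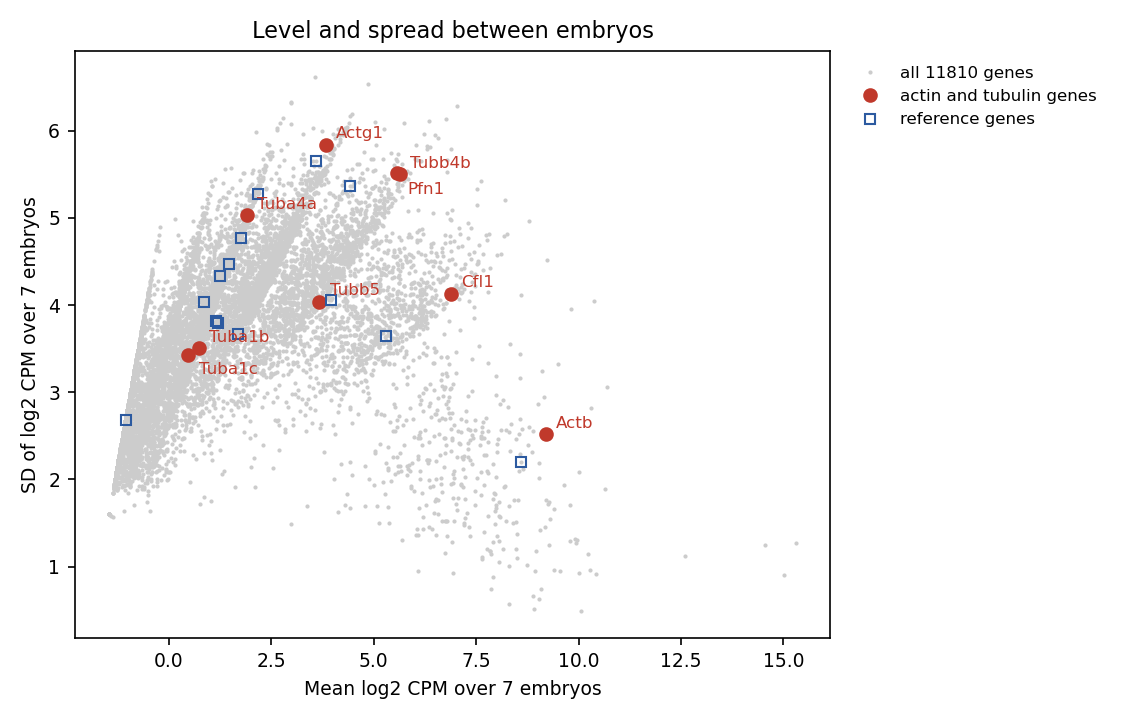
Each grey point is 1 of the 11810 genes whose mean CPM reached 1, placed by its mean (horizontal) and SD (vertical) of log2 CPM over 7 embryos; red points are the 9 actin, tubulin, cofilin and profilin genes that passed this filter, and blue squares are 14 genes often used as references. Actb stands at 9.20 with an SD of 2.52, and Actg1 has the largest SD of the red points, 5.84.

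Genes often used to normalize expression were also measured. Of 15 such genes, 1 (6.67%) was counted in all 7 embryos, where 3.69% of all genes were. This was Eef1a1, a translation elongation factor, at 1183, 450, 608, 2795, 34, 473 and 85.3 CPM. It was also the only one of the 14 that passed the filter with a smaller SD than Actb, 2.20. Ppia, the gene of cyclophilin A, was at 2.62, 171, 0, 1044, 861, 0 and 39 CPM, and H2afz, a histone variant, was at 0 in embryos 1, 3 and 5 like Actg1. The median SD of the reference genes was 4.05.

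Other genes of the actin system were measured alongside. Of the 9 subunits of the Arp2/3 complex, which starts branched filaments, 3 (33.3%) were counted in all 7 embryos. This compares with 1 of the 10 members and 3.69% of the 11810 genes whose mean CPM reached 1. Actr2 was at 83.9, 263, 722, 115, 19.5, 365 and 110 CPM. Arpc2 was at 81.3, 109, 142, 510, 339, 265 and 214 CPM, with an SD of log2 CPM of 1.09, and Arpc4 had an SD of 1.96. Actr2 lay between them, so all 3 spread less than Actb. These 3 are the subunits of highest mean CPM. Over all 9 subunits the median SD was 4.10, and 3 lay below the median of the 11810 genes. For the 9 members that passed the filter these values were 4.13 and 3. Of 37 actin filament regulators in the table, 1 (2.7%) was counted in all 7 embryos, near that share of all genes. Fmn2, a formin of the oocyte spindle, was at 612, 126, 1417, 0, 0, 28.6 and 341 CPM, being absent from the counts of embryos 4 and 5, in which the oocyte list was lowest. Limk2, a kinase that phosphorylates cofilin, reached 1067 CPM in embryo 6. Myl6, a myosin light chain, was at 796 CPM in embryo 4 and 0 in embryo 6. Among the 10 other actins and actin-related genes, 4 had no count in any embryo, as had 11622 of the 26586 genes in the table. Actl7b, known from testis, had 1726 counts (624 CPM) in embryo 5 and 0 elsewhere. Actr1a, of the dynactin complex, was at 16.6 to 205 CPM in embryos 1, 2, 3, 4 and 7 and 0 in embryos 5 and 6. Actl6a, a subunit of chromatin remodelling complexes, reached 147 CPM in embryo 4.

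On the microtubule side, 1 of 20 folding and regulatory genes in the table (5%) was counted in all 7 embryos, where 3.69% of all genes were. This was Mapre1 (EB1, which tracks growing microtubule ends), at 174, 111, 216, 265, 0.723, 645 and 479 CPM. Tbcc, a cofactor of tubulin folding, was at 816, 492, 33.1, 103, 1.45, 0 and 131 CPM, and Tbca, which binds β-tubulin, reached 473 CPM in embryo 6, where no tubulin member was counted. In embryo 5, 3 of these 20 genes were counted, and their sum was 68.4 CPM, against 1024 to 1591 CPM in the other six. Of the 26586 genes in the table, 3388 had a count in embryo 5.

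The genes whose profile over the 7 embryos was closest to each of 4 members were named by the root mean square difference of centred log2 CPM among 7716 genes whose mean CPM reached 10. For Actb these were Hdac1 (difference 0.77), Hdgf (1.08) and Rps15 (1.21), where the median over genes was 3.80. For Tubb5 they were Snrpf (0.38), Med6 (0.56) and Arhgap1 (0.57), and for Cfl1 Trim28 (0.36), Smu1 (0.50) and Sub1 (0.56). For Tuba1b they were Tyw1 (0.24), Alpl (0.25) and Apoe (0.29), each counted, like Tuba1b, in embryos 2, 4 and 7. Tubb4b differed from Tubb5 by 2.31, place 339 of 7715 genes compared, where the median was 4.13. Tuba4a differed from Tuba1b by 1.47, place 543 of 7716, where the median was 3.42. Both genes of each pair were at 0 in the same embryos, and shared zeros enter these differences. Tuba1a and Tuba1c, with mean CPM under 10, were not among the genes compared. Tuba1b, with a mean of 8.16 CPM, was not among them either and served only as a gene to which others were compared. Actg1 was 3.95 from Actb, beyond the median gene.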

How the data were processed

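Messenger RNA was measured in 7 single morula-stage embryos of 1 group. The authors deposited whole-number counts per gene symbol and a table of normalized values on the log2 scale; per the submitters' processing notes the authors used HISAT2 2.0.5, featureCounts 1.5.0-p2 of Subread, limma and GRCm38. The sources used here do not give the order of steps, annotation, strand setting or handling of multiply matching reads. Recomputed log2 CPM with quantile normalization differed from the deposited log2 values by at most 4.97e-14.

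CPM are counts over the library total. Log2 CPM used TMM factors and a prior count of 2 (edgeR 4.0.16, limma 3.58.1, R 4.3.3); an alternative used size factors of DESeq2 1.42.0. Lengths are unions of exons in GENCODE M21. Ratios of 6 pairs were taken as log2 of (count + 0.5) per length in embryos with at least 10 reads in the pair. They were tested with a two-sided exact sign-flip permutation test and Benjamini-Hochberg adjustment. The test was also run on simulated counts of 7 embryos without adjustment, which does not cover the pairs with 3 or 5 embryos. Intervals are exact at 95%. Coding sequences were aligned with Biopython 1.88. Members, lists and tests were chosen with earlier results of these data known. Named genes were the members, the 3 of highest mean CPM in each list, and the 3 nearest in profile to Actb, Tuba1b, Tubb5 and Cfl1; other list genes are named only where a list's count is spelled out, and the rest are marked. Of 119 gene list entries, 115 were in the table.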

Additional observations from a re-analysis of the deposited data

Results flagged for a closer look

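Among the 10 genes, 2 had an embryo far from the other six on the log2 CPM scale, by the gap to the nearest embryo over the whole range. Cfl1 stood at -2.07 in embryo 6, the value of a count of 0, with a gap of 0.688 of the range. Tuba1a stood at 0.64 in embryo 4, with a gap of 0.853 of the range, from 32 counts in the largest library. Both exceed Dixon's 95% critical value for 7 samples. Its rate of about 1 in 20 groups holds for normally distributed values and does not apply here. Tuba1a was counted in only 2 embryos, and the others share the value of a count of 0. Cfl1 was at that value in embryo 6, as were 85.2% of the 11810 genes whose mean CPM reached 1.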

How the results depend on the processing

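No paired analysis was possible because the series has 1 group. No pair passed the adjusted threshold under any alternative, but with so few embryos almost none could have, so this says nothing about stability. Of 108 recomputed pair ratios, 104 kept their direction. The exceptions were Tuba4a over Tuba1b at -0.45 with positions unique at 50 bases as length, Cfl1 over Pfn1 at -0.10 with positions unique at 100 bases, and leave-one-out values. Leaving out 1 embryo gave ranges of -5.94 to -4.07 for Actg1 over Actb, -8.09 to -5.86 for Tuba1a, -1.71 to 0.15 for Tuba1c and 1.36 to 2.37 for Tuba4a over Tuba1b, 2.44 to 4.03 for Tubb4b over Tubb5 and -0.14 to 2.87 for Cfl1 over Pfn1, which was negative without embryo 3. With the authors' normalized values, Tuba1a over Tuba1b was -3.33, Actg1 over Actb -6.53 and Tubb4b over Tubb5 5.14. The offset added to counts, which sets the ratio where Actg1 is at 0, gave -6.07 at 0.1 and -4.66 at 1 for Actg1 over Actb. With no minimum of reads, Tuba1a and Tuba4a over Tuba1b were -2.96 and 0.20, embryos with no reads of either gene being included. The number of members counted in every embryo was 1, and 1 to 2 with 1 embryo left out, 2 being without embryo 6; it was 4 without embryos 3 and 6 together, fewer embryos being required. Members with an SD below the median numbered 3, and 1 of 10 with no filter on low counts, where genes never counted pull the median SD to 1.14. The median share of counts was 0.158%, and 0.147 to 0.216% with 1 embryo left out. Of 110 recomputed mean levels, 109 stayed within 1 SD; Tuba1a moved to -3.25 with a prior count of 0.5. The length alternatives by unique positions or principal transcript, and the count without embryos 3 and 6, were chosen after seeing the data.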
